A study of Mus musculus with 6 samples.

Results

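The 5′ fragments described here all begin with gccgtgat and are 35 nt or shorter. They make up 28 of the 1336 tRNA fragment sequences counted in mouse heart, and 28 of the 554 that come from the 5′ end of a tRNA. The start was taken from a single fragment, tRF_5_387, which was chosen by its difference in counts between knockout and control hearts. The pair tRF_5_387 and tRF_5_388 was likewise selected on how differently its members behaved in that contrast. Differences between the groups are therefore given below as a description, with errors and no p-values.

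The series compared hearts of 3 control mice, titled L/L and given the genotype Elac2 +/+, with hearts of 3 knockout mice, titled L/L, cre and given as Elac2 -/-. Both groups were C57BL/6, and by their L/L titles both carried the Elac2 exon flanked by loxP sites. Cre came from the muscle creatinine kinase promoter, as the labels spell it, so cells of the heart in which that promoter is silent keep the gene, and RNA came from crude hearts that hold such cells too. Each mouse gave 1 library of small RNA size-selected for 15 to 35 nt, from 4 technical replicates, and because hearts were bulk samples, fewer cells of a type and less RNA per cell cannot be told apart. The tables list tRNA fragments only, so the genotype could not be checked against Elac2 itself.

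A tRNA is transcribed as a precursor, and RNase P removes its 5′ leader while ELAC2, the RNase Z of nucleus and mitochondria, removes its 3′ trailer. Cuts in or near the anticodon loop of a mature tRNA release 5′ fragments that reach roughly to the anticodon, and cuts in the D loop release shorter ones. Histidine tRNA is unusual in that an extra G is added in front of its first encoded base after transcription. None of the 554 sequences from 5′ ends held the shared start 1 or more nt further in (0 found), so forms with such an added base were not among those counted.

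The fragments were read against a histidine tRNA gene, shown here because every position below is counted on it. The window around the start of BC107364 in RefSeq (GRCm38.p6, the assembly of mm10) overlaps the tRNA gene n-THgtg7 on the opposite strand. The gene lies at chr3:96452495-96452566 on the plus strand, is 72 nt long, and the window covers its first 62 bases. Capitals mark the anticodon.
n-THgtg7, bases 1 to 62: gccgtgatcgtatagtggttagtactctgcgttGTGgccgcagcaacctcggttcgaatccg

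A script found 1 hairpin of 5 bp with a 7-nt loop in these bases. Its 5′ strand spans bases 27 to 31 and its loop bases 32 to 38, with GTG, the anticodon of histidine, at bases 34 to 36. The D loop was found at bases 14 to 21. Of the 28 fragments, 18 match the gene from its base 1 without a mismatch, which goes with the histidine label. Genes of other tRNAs were not searched as a set, so whether a short fragment also matches another tRNA is not known here. RefSeq lists 10 nuclear genes of this anticodon, 3 on chromosome 2, 6 on chromosome 3 and 1 on chromosome 4, and n-THgtg7 is the 1 whose sequence was used here. A match does not say which copy a fragment came from.

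The other 10 fragments differ from the gene at 1 position, base 16 in the D loop, and match it at every other base they hold. The change is T16G, counted from the 5′ end of the fragment. Sequences of the other listed gene copies were not read, so whether any of them holds G at base 16 is not known here. Fragments with T there are called the T form below and those with G the G form. The T form was listed at 17 lengths from 16 to 35 nt, the G form at 10 of these lengths, and the 15-nt fragment tRF_5_2 ends before the variable base. The forms that carry the results are printed next, with base 16 in capitals.
tRF_5_37, 18 nt, T form: gccgtgatcgtatagTgg
tRF_5_201, 28 nt, T form: gccgtgatcgtatagTggttagtactct
tRF_5_261, 30 nt, T form: gccgtgatcgtatagTggttagtactctgc
tRF_5_291, 31 nt, T form: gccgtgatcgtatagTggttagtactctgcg
tRF_5_388, 34 nt, T form: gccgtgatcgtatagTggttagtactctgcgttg
tRF_5_387, 34 nt, G form: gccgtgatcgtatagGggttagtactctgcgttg

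The 18-nt fragment thus ends inside the D loop. Those of 28, 29, 30 and 31 nt end in the 5′ strand of the anticodon stem, the last of them at its final base. The 34-nt pair ends right after the first base of the anticodon.

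The summed count of the 28 fragments was 1002, 10754 and 6820 in the 3 control libraries and 3762, 3027 and 2908 in the 3 knockout libraries. Control replicate 1 stood below each knockout library and the other 2 controls above each of them, so the groups overlapped. All tRNA fragments together had 235046 to 773252 counts per control library, but 45354 to 61712 per knockout library. As a share of that total, histidine 5′ fragments took 0.426%, 1.39% and 1.80% in controls and 6.72%, 6.67% and 4.71% in knockouts. The mean share was 1.21% ± 0.705 (SD, n = 3) for the controls against 6.04% ± 1.15 (SD, n = 3) for the knockouts, and each knockout library lay above each control library. A share depends on what else was counted, and the knockout libraries held fewer counts of all tRNA fragments together.

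Scaled by TMM, which sets the bulk of tested sequences equal between libraries, the sum was not higher in the knockout. It was 4172, 64165 and 44634 CPM (counts scaled to a common library total) in controls and 28108, 26346 and 25501 CPM in knockouts. The log2 ratio of the group means was −0.50, and the knockouts lay within the range of the controls. It was −1.07 without control replicate 1 and 0.12 without control replicate 2, and with library totals alone it was 2.32. The direction of the summed level therefore depended on the scaling, whereas shares within the 28 fragments, used next, do not depend on any scaling.

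In control hearts the fragments ended mainly at 30 and 31 nt, with a further group at 28 and 29 nt. The lengths of 30 and 31 nt held 56.4% ± 5.80 (SD, n = 3) of the histidine 5′ fragment counts of a control library, and 28 and 29 nt held 27.9% ± 1.19 (SD, n = 3). In knockout hearts 30 and 31 nt held 68.5% ± 1.37 (SD, n = 3), but 28 and 29 nt held only 4.74% ± 0.235 (SD, n = 3). The share at 28 and 29 nt was 26.5% to 28.6% in the controls and 4.47% to 4.89% in the knockouts, so the gap between the groups was many times their spread, and control replicate 1 did not stand apart in this measure.

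The 28-nt fragment tRF_5_201 had 176, 1551 and 1183 counts in controls and 83, 48 and 46 in knockouts. Each knockout library lay below each control library in counts, but knockout libraries held fewer counts of all tRNA fragments together. In CPM the groups did not overlap either, though control replicate 1 had 733 CPM and knockout replicate 1 had 620 CPM. No overlap was also seen for 43.7% of all tested sequences. The level of tRF_5_201 was 5910 ± 4547 CPM (SD, n = 3) for the controls against 480 ± 121 CPM (SD, n = 3) for the knockouts. The log2 fold change was −3.62 ± 0.82 (SE), and the fragment was called lower; a call here means an adjusted p under 0.05 in edgeR's fit of all tested sequences. With library totals alone the value was −0.84 and was not called.

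The 29-nt fragment tRF_5_226 had 110, 1301 and 768 counts in controls and 100, 93 and 83 in knockouts. In CPM the groups overlapped, because control replicate 1 had 458 CPM and the knockouts 728 to 809 CPM. The log2 fold change was −2.53 ± 0.80 (SE), and it was 0.31 with library totals alone. The call rested on most libraries being present: it did not hold with control replicate 2, control replicate 3 or any single knockout left out. It did not hold by limma-voom, with a block for replicate number or with library totals alone either.

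A ratio to the 30-nt fragment within the same library sets depth and scaling aside. The count of tRF_5_201 was 0.618, 0.525 and 0.573 of that of tRF_5_261 in the 3 controls and 0.0646, 0.0400 and 0.0368 in the 3 knockouts. The mean ratio was thus 12.1-fold lower in knockout hearts. For tRF_5_226 the mean ratio to tRF_5_261 was 0.400 ± 0.0361 (SD, n = 3) for the controls against 0.0739 ± 0.00657 (SD, n = 3) for the knockouts, 5.41-fold lower. The step from 28 to 30 nt adds bases 29 and 30 of the anticodon stem.

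The same ratio of 28 to 30 nt was computed for other 5′ fragments grouped by their first 8 nt. Only 3 other starts had at least 10 counts at both lengths in each of the 6 libraries. For GCATTGGT the mean ratio was 11.7 in control and 1.47 in knockout hearts, 7.95-fold lower. For TCCCACAT the mean was 2.35-fold lower, with 1.90 to 2.87 in controls and 0.591 to 1.67 in knockouts. For TCCCATAT it was 1.99-fold lower. In each of the 3 starts the highest knockout library lay below the lowest control library. TCCCACAT and TCCCATAT differ at a single base, so they may not be separate cases. A lower ratio of 28 to 30 nt was therefore seen in these starts too and is not particular to histidine fragments. The ratio does not say whether the 28-nt or the 30-nt count differed, and the difference in its size was not tested.

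The long fragments at 30 and 31 nt were the most abundant. tRF_5_261 (30 nt) had 285, 2953 and 2063 counts in controls and 1284, 1199 and 1251 in knockouts. Its log2 fold change was −0.06 ± 0.76 (SE), and the knockout libraries lay between control replicate 1 and the other 2 controls. tRF_5_291 (31 nt) had 213, 3598 and 1922 counts in controls and 1340, 833 and 717 in knockouts, with a log2 fold change of −0.57 ± 0.81 (SE). Both changed sign with library totals alone, at 2.73 and 2.34, so neither has a direction apart from the scaling chosen. Relative to each other they did not separate the groups: the ratio of 31 to 30 nt was 0.747 to 1.22 in controls and 0.573 to 1.04 in knockouts.

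Shares of other lengths were then taken among the counts outside 28 and 29 nt, a step added after seeing the data, since a lower share there raises the rest. On this basis 30 nt held 39.9% ± 2.49 (SD, n = 3) for the controls against 41.0% ± 4.70 (SD, n = 3) for the knockouts, and 34 nt held 3.68% ± 2.02 and 4.37% ± 0.740 (SD, n = 3). These overlapped. The share at 31 nt overlapped as well, at 38.4% ± 7.84 (SD, n = 3) for the controls and 30.9% ± 5.94 (SD, n = 3) for the knockouts. At 33 nt the share was 10.8% ± 1.47 (SD, n = 3) for the controls against 13.4% ± 1.05 (SD, n = 3) for the knockouts. The ranges of 9.08% to 11.9% and 12.4% to 14.5% did not overlap. Of all lengths outside 28 and 29 nt, only 18 and 33 nt separated the groups, and this was not tested.

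A short length, 18 nt, took a larger share in knockout hearts. tRF_5_37 had 4, 3 and 11 counts in controls and 58, 46 and 43 in knockouts. It held 0.274% ± 0.264 (SD, n = 3) of counts outside 28 and 29 nt in controls, against 1.59% ± 0.0372 (SD, n = 3) in knockouts, with no overlap. The control share was 0.132% without control replicate 1, 0.392% without control replicate 2 and 0.298% without control replicate 3. The level of tRF_5_37 was 35.5 ± 31.6 CPM (SD, n = 3) in controls and 404 ± 28.3 CPM (SD, n = 3) in knockouts. The control mean was 44.95 CPM without control replicate 1, 44.3 CPM without control replicate 2 and 17.3 CPM without control replicate 3. These values without a library were added after seeing the data. The log2 fold change was 3.51 ± 0.82 (SE), or 5.79 with library totals alone.

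Other short and middle lengths were rarer. The 15-nt tRF_5_2 had 6, 16 and 31 counts in controls and 19, 44 and 16 in knockouts, and the groups overlapped (log2 fold change 1.05 ± 0.81 SE). The 24-nt tRF_5_123 had 3, 3 and 5 counts in controls and 12, 11 and 17 in knockouts (2.40 ± 0.72 SE). The call did not hold with control replicate 2, knockout replicate 2 or knockout replicate 3 left out, without the filter, or by DESeq2. Fragments of 26 nt are next to the start of the stem: tRF_5_164 had 33, 56 and 71 counts in controls and 93, 112 and 102 in knockouts (1.46 ± 0.66 SE), with no overlap in CPM but no call.

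The T form at 23, 25 and 27 nt overlapped between the groups in CPM. tRF_5_105 (23 nt) had 4 to 11 control and 5 to 8 knockout counts, with a log2 fold change of 0.66 ± 0.67 (SE). tRF_5_142 (25 nt) had 8 to 16 and 10 to 15 counts (0.55 ± 0.69 SE). tRF_5_181 (27 nt) had 2 to 7 and 4 to 22 counts (1.88 ± 0.82 SE).

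Among T forms that reach into the anticodon loop, tRF_5_324 (32 nt) had 30, 86 and 59 counts in controls and 73, 61 and 77 in knockouts. Its log2 fold change was 0.78 ± 0.68 (SE), and it was not called. tRF_5_358 (33 nt) had 65, 936 and 551 counts in controls and 510, 378 and 341 in knockouts (0.09 ± 0.78 SE). tRF_5_388 (34 nt) had 43, 207 and 116 counts in controls and 107, 110 and 106 in knockouts (0.31 ± 0.69 SE). In CPM each knockout library lay above each control library for tRF_5_324, at 531 to 675 against 125 to 513 CPM. For tRF_5_358 and tRF_5_388 the groups overlapped, and their sign changed in 4 and 2 of 14 other settings. At 35 nt, the last length inside the limit, the T form tRF_5_419 had 3, 13 and 7 control counts and 2, 6 and 1 knockout counts. The G form there, tRF_5_418, had 2 counts, both in knockout replicate 1. Just outside the limit, at 36 nt, the T form tRF_5_441 had 17, 45 and 22 control counts and 7, 1 and 0 knockout counts, and the G form tRF_5_440 had 1 count in all. The 36-nt forms end with the anticodon, and they lie beyond the size selection.

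The G form was rare in control hearts and less rare in knockout hearts. Over all lengths past base 15 it had 2, 7 and 1 counts in the controls and 44, 47 and 54 in the knockouts. In the knockouts it made up 1.18%, 1.58% and 1.87% of the counts of both forms, and the lowest bound of their 95% intervals was 0.855%, in replicate 1. In the controls it made up 0.201%, 0.0652% and 0.0147%, and the highest bound was 0.723%, in replicate 1. The intervals are exact binomial ones (Clopper-Pearson) and cover counting error only. The fragment that set the rule is among these counts, so nothing is read from the gap between these bounds. Without the 34-nt pair, an alternative added after seeing the data, the shares were 0.210%, 0.0570% and 0% (0 of 6672 counts, which allows up to 0.0450%) in controls and 0.691%, 0.563% and 1.09% in knockouts. Each knockout library still lay above each control library, but the interval of control replicate 1 (0.0254% to 0.756%) then met those of all 3 knockouts, whose lower bounds were 0.448%, 0.322% and 0.734%. The control mean over all lengths was 0.0936%. It was 0.0400% without control replicate 1, 0.108% without control replicate 2 and 0.133% without control replicate 3, likewise added after seeing the data.

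At 34 nt the G form reached its highest share among lengths with at least 50 counts of both forms in each knockout library. This is the length of tRF_5_387, which was chosen by its counts in these libraries, so nothing is read from the rank. The cutoff leaves out 16, 24, 28 and 35 nt. At 28 nt the share reached 12.7% (7 of 55 counts) in knockout replicate 2, and at 35 nt 50% (2 of 4 counts) in knockout replicate 1. In knockout replicate 3 it reached 25% (1 of 4 counts) at 16 nt and 10.5% (2 of 19 counts) at 24 nt. tRF_5_387 had 0, 1 and 1 counts in controls and 19, 31 and 24 in knockouts, beside the counts of tRF_5_388 given above. Its share of the pair was 15.1% (95% interval 9.33% to 22.5%), 22.0% (15.5% to 29.7%) and 18.5% (12.2% to 26.2%) in the 3 knockouts. In controls replicate 1 had 0 of 43 counts, which allows a share of up to 6.98% by the limit of 3 counts and 8.22% by the upper bound of the exact interval, and replicates 2 and 3 had 0.481% and 0.855%.

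The lengths of the G form differed from those of the T form within the same knockout libraries. Of 44, 47 and 54 G-form counts, 43.2%, 66.0% and 44.4% were 34 nt long. Of the T-form counts of these libraries 2.89%, 3.75% and 3.74% were 34 nt long. Over the 3 knockouts 3734 of 9473 T-form counts were 30 nt and 2890 were 31 nt long, against 13 and 13 of 145 G-form counts. Since tRF_5_387 was chosen for its counts in these libraries, this difference in lengths is a description of them.

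At most other lengths the G form was a smaller part. At 33 nt tRF_5_357 had 9, 5 and 4 knockout counts, a mean share of 1.40% ± 0.299 (SD, n = 3), against 1 control count in all. Control replicate 1 had 0 of 65 counts there, which allows up to 4.62% by the limit of 3 counts. At 32 nt tRF_5_323 had 6, 1 and 5 knockout counts, or 7.59%, 1.61% and 6.10% of both forms, and 0 control counts. The controls had only 30, 86 and 59 counts of both forms, so their 0 allows up to 10%, 3.49% and 5.08%. At 31 nt the forms did not separate the groups: tRF_5_290 had 2, 4 and 0 control and 3, 2 and 8 knockout counts. At 30 nt tRF_5_260 had 1 control count and 4, 1 and 8 knockout counts, a share of 0.311%, 0.0833% and 0.635%. The 0 of 285 counts in control replicate 1 allows up to 1.05%. At 28 nt 7 of the 8 counts of tRF_5_200 came from knockout replicate 2. The G forms tRF_5_8 (16 nt), tRF_5_122 (24 nt) and tRF_5_163 (26 nt) had 2, 2 and 1 counts, each in knockouts. In all, 6 of the 10 G forms had 0 counts in each control library, while all 17 T forms were counted in both groups. These 6 G forms were rare in the knockouts too, with 1 to 12 counts each over the 3 libraries, and most T forms had more. How many of all sequences had 0 control counts is not given here. Nothing is therefore read from this contrast, since a rarer sequence is more easily missed in a library.

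The low counts set what could be tested across all sequences. Of the 28 fragments, 15 passed the filter on low values: tRF_5_2, 13 T forms and tRF_5_387. The filter works on counts relative to each library's total, and 6 of the 15 passed it through the knockout libraries alone. Among them were tRF_5_37, tRF_5_123 and tRF_5_387, which therefore had to be higher there relative to library totals, before TMM scaling. Fragments tRF_5_105 and tRF_5_142 passed in the same way, but overlapped between the groups in CPM and were not called. The 13 that did not pass had at most 13 counts in a library; besides the G forms they are the T forms tRF_5_9 (16 nt), tRF_5_21 (17 nt), tRF_5_90 (22 nt) and tRF_5_419. Of the 15 tested, 3 were called higher in the knockout (tRF_5_37, tRF_5_123 and tRF_5_387), where 15.7% of all 254 tested sequences were. The number called lower was 2 (tRF_5_201 and tRF_5_226), where 16.9% of all tested were. The CPM of the groups did not overlap for 6 of the 15, and for 43.7% of all tested. Nothing is read from these counts, since the start was selected on this contrast.

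By length, the tested histidine fragments lay beside other 5′ fragments of 35 nt or less as follows. At 28 and 29 nt both tested histidine fragments were called lower, as were 15 of 19 others, with medians of −3.08 and −3.37 on the log2 scale. Scaled by library totals, 0 of these 2 and 6 of the 19 were called lower by edgeR, and 0 of the 2 were lower at an unadjusted p under 0.05. Over the wider class of 25 to 29 nt 2 of 5 histidine fragments and 20 of 28 others were called lower, with medians of 0.55 and −3.05. The 25-nt and 27-nt fragments in this class passed the filter through knockout libraries alone. At 15 to 24 nt 2 of 4 histidine fragments and 9 of 21 others were called higher, and 3 of these 4 histidine fragments passed the filter through knockout libraries alone. At 30 to 32 nt the 3 histidine fragments lay between −0.57 and 0.78 with no call, while 8 of 32 others were called higher and 5 lower. At 33 to 35 nt 1 of 3 histidine fragments, tRF_5_387 itself, and 5 of 25 others were called higher. The median over all 15 was 0.66, but 0.09 over the 9 that had a control library past the filter, a split added after seeing the data. It was −0.53 for the 106 other tested 5′ fragments and 0.06 for all 254 sequences, and nothing is read from these medians.

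Sequences close to the shared start were scarce. Only 7 other 5′ fragments of 35 nt or less differed from it by 1 base in the first 8 nt, with 16 counts over the controls and 9 over the knockouts. At the other end of the tRNA, 3 fragments that end in CCA pair with the first 7 nt of the histidine fragments, as the acceptor stem does. The longest, tRF_3_188 (22 nt), had 10, 1 and 1 counts in controls and 0, 1 and 0 in knockouts. The other two, tRF_3_53 and tRF_3_74, had 3 counts in all, so the 3′ end was too rare to be compared.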

How the data were processed

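Small RNA of 6 mouse hearts was analysed, 3 per group, 1 library each. Raw counts for every sequence were deposited, together with a normalized signal. Within each library this signal is a constant multiple of the count. The authors' deposited table of log2 fold changes, Wald scores and p-values was not used for results. The submitters' processing notes name cutadapt 1.1.4, Bowtie2 2.2.9, DESeq2 1.16.1 and build mm10. The fragment set and mapping settings were not given in the sources used here, so how reads shared by near-identical sequences were assigned is unknown. How technical replicates were combined is not stated either. The labels name no litter or batch. Total small RNA depth is unknown here: totals are sums over listed fragments, and intervals cover counting error only.

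The whole table of 1336 sequences went through edgeR's quasi-likelihood test (edgeR 4.0.16 under R 4.3.3) with a group term alone, TMM scaling, filterByExpr (minimum count 10) and Benjamini-Hochberg adjustment at 0.05. TMM factors ranged from 0.217 to 1.02 for controls and from 1.85 to 2.53 for knockouts. SEs were derived from the F statistic. The step was tested on simulated counts with changes drawn at random in both directions. That test did not examine how the calls depend on the scaling. Named were tRF_5_387, tRF_5_388, each fragment passing the filter, and those 1 base or 1 nt away; the remaining fragments were named after their values were seen. Alternatives were other scalings and filters, DESeq2 1.42.0, limma-voom (limma 3.58.1), a replicate block and each library left out. Members and lists were chosen with earlier results of these data known.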

Additional observations from a re-analysis of the deposited data

How the results depend on the processing

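The number of fragments called higher, 3, was 12 with library totals alone and 5 with upper-quartile scaling, and ran from 2 to 3 with a library left out. With library totals alone 104 of all 254 tested sequences were called higher (40.9%) and 7 lower. The number called lower, 2, was 0 with library totals alone in edgeR (0 also at an unadjusted p under 0.05), 1 by limma-voom, and 1 to 2 with a library left out. The log2 fold change of tRF_5_226 reversed to 0.31 with library totals alone, since that scaling shifts the median of all tested sequences to 2.13. The log2 ratio of the summed level moved from −0.50 to 2.32 with it, and ran from −1.07 to 0.12 with a library left out. The call of tRF_5_201 held in 13 of 14 other settings and that of tRF_5_226 in 6. Nothing is read from how often tRF_5_37, tRF_5_123 and tRF_5_387 were called, since they passed the filter through knockout libraries alone. Signs of uncalled tRF_5_261, tRF_5_291, tRF_5_358 and tRF_5_388 changed in 9, 4, 4 and 2 settings. The labels do not say whether same-numbered mice were paired. Their deviations correlated at −0.0054, 0.289 and 0.0452, and those of differently numbered mice at −0.300 to 0.203. With 3 mice per group these values cannot decide it. With the replicate block 3 fragments were called higher and 1 lower, and tRF_5_226 (−1.92) was no longer called. Without the most abundant fragment, 30 nt long, the class it belongs to, 30 to 32 nt, fell to 41.0% of control counts (58.0% with it) and 51.95% of knockout counts (70.8%). The other classes then share a smaller total: 25 to 29 nt held 42.1% of control counts (30.01% with it) and 14.5% of knockout counts (8.78%), 33 to 35 nt 14.8% (10.6%) and 27.97% (17.0%), and 15 to 24 nt 5.60% of knockout counts (3.39%). Of the 28 fragments, 13 had too few counts to be tested. For the other changes of call, the cause was not tested.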
